A study of Mus musculus with 8 samples.

Results

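The comparison described here is a single X-ray dose of 10 Gy set against untreated cells, in LLC1, a cell line grown from a Lewis lung carcinoma of a C57BL/6 mouse. It rests on 2 of the 8 arrays of the study, chosen by their label, which names a single 10 Gy treatment of the cells in the Cy5 channel. On each of these 2-colour oligonucleotide arrays, cRNA of irradiated cells (Cy5) and of untreated cells (Cy3) was hybridised together, 4 h after irradiation. The other arrays held cells given a single dose of 2 Gy (3 arrays) or 5 fractions of 2 Gy, written 5x2 Gy (3 arrays), each also against untreated cells. All groups were 1 cell line in culture, without stroma or immune cells, in medium with fetal bovine serum. The labels count 3 biological replicates of 10 Gy, and the third was not analysed here. They do not say whether the untreated RNA of the arrays came from 1 culture or several. If the arrays do not come from separate cultures, the p-values measure a technical spread alone. The dyes were never exchanged, so a dye effect of a gene is part of its ratio.

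X-rays break DNA, and the kinases ATM and ATR pass the damage signal to the checkpoint kinases and to the transcription factor p53. Stabilised p53 switches on genes of cell cycle arrest, apoptosis, repair and metabolism, among them the gene of its own ubiquitin ligase, Mdm2. Cyclin-dependent kinase inhibitors such as p21 keep the retinoblastoma family and E2F factors in a repressive state, under which genes of DNA replication and mitosis are transcribed less.

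An array held 41174 probes, and 13337 genes had a probe whose signal was above the negative controls on enough arrays to be tested. Above the negative controls were 41.6% and 37.1% of the probes in the irradiated channel of 10 Gy replicates 1 and 2, and 45.8% and 47.2% in the untreated channel. The number of arrays limits the precision. Of the markers of LLC1 as a carcinoma line, Krt8, Krt18 and Krt19 were above background in irradiated and untreated cells on all 8 arrays, while Epcam and Cdh1, which define epithelia, were above it on none. Of the other epithelial markers, Krt7 was above background in untreated cells on 2 arrays and Cldn4 on 4. The lung markers Nkx2-1 and Sftpa1, the endothelial markers Pecam1 and Tek and the leukocyte markers Ptprc, Adgre1 and Itgam were above background on no array, by the brightest probe of each. Other markers of these types were above it in untreated cells, Cd3e of T cells on all 8 arrays, the lung genes Sftpb and Scgb1a1 on 5 each and the endothelial gene Cdh5 on 3. All 5 mesenchymal markers (Vim, Cdh2, Fn1, Zeb1 and Zeb2) were above background in untreated cells on all 8 arrays. Of the fibroblast markers, Col3a1 was so on all 8, Col1a1 on 7, Col1a2 on 4, Pdgfra on 3 and Pdgfrb and Dcn on 0. Cd68, a lysosomal protein used as a macrophage marker, was also above background on all 8 arrays and rose after 10 Gy (mean log2 ratio 1.22, limma adjusted p = 0.00851).

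The 2 arrays of 10 Gy did not behave alike, and every result is therefore given for each array. They lay on different slides, replicate 1 with the 2 Gy arrays on slide 1 and replicate 2 with the 5x2 Gy arrays on slide 2, so slide and replicate cannot be told apart. The SD of the log2 ratios (irradiated over untreated) over genes was 0.69 in replicate 1 and 0.46 in replicate 2. Across the 13337 genes, which are not independent replicates and share the hybridised RNA and the dyes of an array, the log2 ratios of replicates 1 and 2 correlated at r = 0.427. For replicate 2 and the arrays of 5x2 Gy, which lay on the same slide, r was 0.748 to 0.855, beside 0.829 to 0.887 among the 5x2 Gy arrays themselves and 0.651 to 0.813 among the 2 Gy arrays. Whether the label of replicate 2 is right was not tested, and every mean of the 2 arrays rests on it. For replicate 1 and the arrays of 2 Gy on slide 1, r was 0.391 to 0.512. The normalized log2 intensity of the irradiated channel differed between replicates 1 and 2 with an SD over genes of 0.68, and by at least 2-fold in 12.6% of genes. In the untreated channel that SD was 0.31, and 1.21% of genes differed by at least 2-fold.

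**Figure D1:**
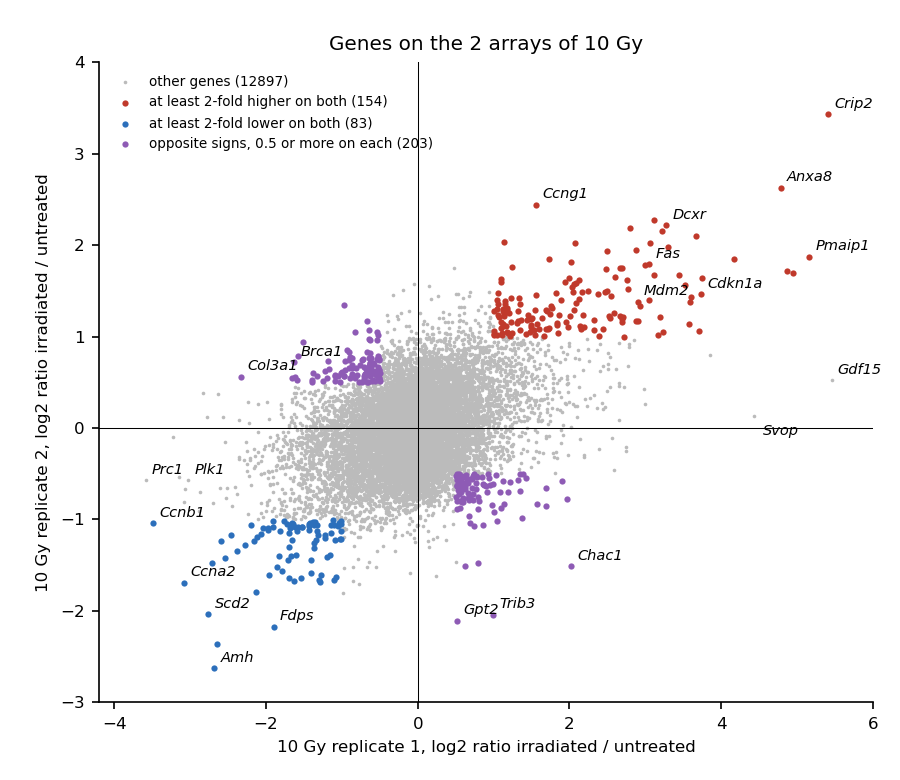
Each point is 1 of the 13337 genes, with its log2 ratio of irradiated over untreated cells in 10 Gy replicate 1 (x axis) and replicate 2 (y axis). Of the coloured genes, 154 were at least 2-fold higher and 83 at least 2-fold lower on both arrays, and 203 had opposite signs with a size of at least 0.5 on each.

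The first question was which genes a dose of 10 Gy changed on both arrays. The mean log2 ratio of the 2 arrays was tested against 0 in limma, with the spread of a gene estimated over all 8 arrays and Benjamini-Hochberg adjustment over all genes. The SE beside a mean uses this shared spread and is not the SE of the 2 arrays of 10 Gy alone. There, n = 2 counts the arrays averaged. At an adjusted p under 0.05, 1660 genes were higher in irradiated cells (12.4% of those tested) and 2109 lower (15.8%). Each of these 3769 had the same sign on both arrays, which the test all but fixed. It counts the gap between the 2 arrays as spread, so a gene of opposite signs could hardly be called. Of the calls 44.0% were higher in irradiated cells, and 58.7% with median centring in place of loess. Without replicate 1 the test called 4698 genes, and without replicate 2 it called 6057, with the lone array then assumed to vary like the other regimens. The estimate without one array is the other array's own log2 ratio, which stands beside each gene. In RNA of whole cultures, fewer cells that express a gene and less RNA per cell cannot be told apart. With weights for each array 222 genes were called, and with the 10 Gy arrays alone 300. Regardless of the test, 27.0% of genes were higher on both arrays, 33.5% lower on both and 39.5% of opposite sign. A stricter description asks for at least 2-fold on each array, which 154 genes met upward (1.15%) and 83 downward (0.622%). Of the 707 genes at least 2-fold higher in replicate 1, 21.8% were so in replicate 2, and of the 249 in replicate 2, 61.8% were so in replicate 1. Among genes at least 2-fold lower, 8.1% of the 1025 in replicate 1 were shared and 49.1% of the 169 in replicate 2. Other probes of the same genes, which took no part in this choice, had the same sign on both arrays in 55 of 66 cases for the higher genes (83.3%) and in 55 of 70 for the lower genes (78.6%).

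Crip2, a LIM domain protein, led the genes that rose. Its signal (normalized log2 intensity) in replicates 1 and 2 was 14.35 and 13.03 in irradiated cells, against 8.94 and 9.60 in untreated cells, so that both irradiated samples lay above both untreated ones. The log2 ratios were 5.41 and 3.43, a mean of 4.42 ± 0.35 (SE, n = 2, 21.4-fold, limma adjusted p = 0.000216). Anxa8, an annexin, which binds membranes in the presence of calcium, had a signal of 12.54 and 10.51 in irradiated cells, against 7.76 and 7.88 in untreated cells. The untreated signal was not above background on either array, and Anxa8 was at least 11.3-fold higher after 10 Gy, where the bound sets the mean of the irradiated signals against the detection level of the untreated channel (limma adjusted p = 0.000426). Celf5, an RNA-binding splicing regulator, was likewise below background in untreated cells and at least 6.18-fold higher in irradiated ones. Cryab, a small heat shock protein, rose by 4.95 in replicate 1 and 1.70 in replicate 2, and Fcgbp by 4.86 and 1.72. The enzymes in this group were Ass1, argininosuccinate synthase (3.67 and 2.10), Ak1, adenylate kinase 1 (3.11 and 2.28), Dcxr, L-xylulose reductase (3.28 and 2.22), and Ephx1, microsomal epoxide hydrolase (3.44 and 1.68). Serpine2, an inhibitor of serine proteases, had log2 ratios of 3.75 and 1.64, Cgref1 of 3.22 and 2.15 and Eva1c of 3.52 and 1.56. One of the other 2 probes of Eva1c did not share these signs. In all of these genes the log2 ratio was lower in replicate 2, by at least 1 unit except in Ak1, and all of them were called different between the arrays.

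Amh, the anti-Müllerian hormone, had the lowest mean. Its signal was 7.55 and 8.26 in irradiated cells, against 10.23 and 10.89 in untreated cells, with both irradiated samples below both untreated ones. Amh was not above background in irradiated cells on either array, and was at least 4.96-fold lower after 10 Gy (log2 ratios -2.68 and -2.63, limma adjusted p = 8.62e-06). Ttbk1, tau tubulin kinase 1, fell on both arrays (-2.65 and -2.36), as did Syn1, the synaptic vesicle protein synapsin 1 (-1.95 and -1.61), whose other probe did not share the sign. Amh was at -2.96 after 2 Gy and -2.40 after 5x2 Gy, and Ttbk1 at -2.88 and -2.53. Scd2, a stearoyl-CoA desaturase, had a signal of 12.21 and 12.41 in irradiated cells, against 14.97 and 14.45 in untreated cells, and a mean log2 ratio of -2.40 ± 0.18 (SE, n = 2, limma adjusted p = 0.000195). Ccna2, cyclin A2, and Ccnb1, cyclin B1, were at -3.08 and -1.69 and at -3.49 and -1.05. Both fell by at least 1 log2 unit on each array, and further in replicate 1. The chromatin protein Smchd1 was at -2.59 and -1.24 and the cytoskeletal kinase Rock1 at -2.46 and -1.17. Cdc27, a subunit of the anaphase-promoting complex, was at -2.27 and -1.28. Ttbk1, Rock1 and Cdc27 were not above background in irradiated cells of replicate 1, so their ratios there are not exact. Adm, the vasodilator peptide adrenomedullin, was at -2.38 and -1.35 and Bnip3, a mitophagy receptor, at -2.54 and -1.42. Msmo1, Fdps and Sqle of sterol synthesis, also among the lowest 15 of the genes at least 2-fold lower on both arrays, are described with that pathway.

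**Figure D2:**
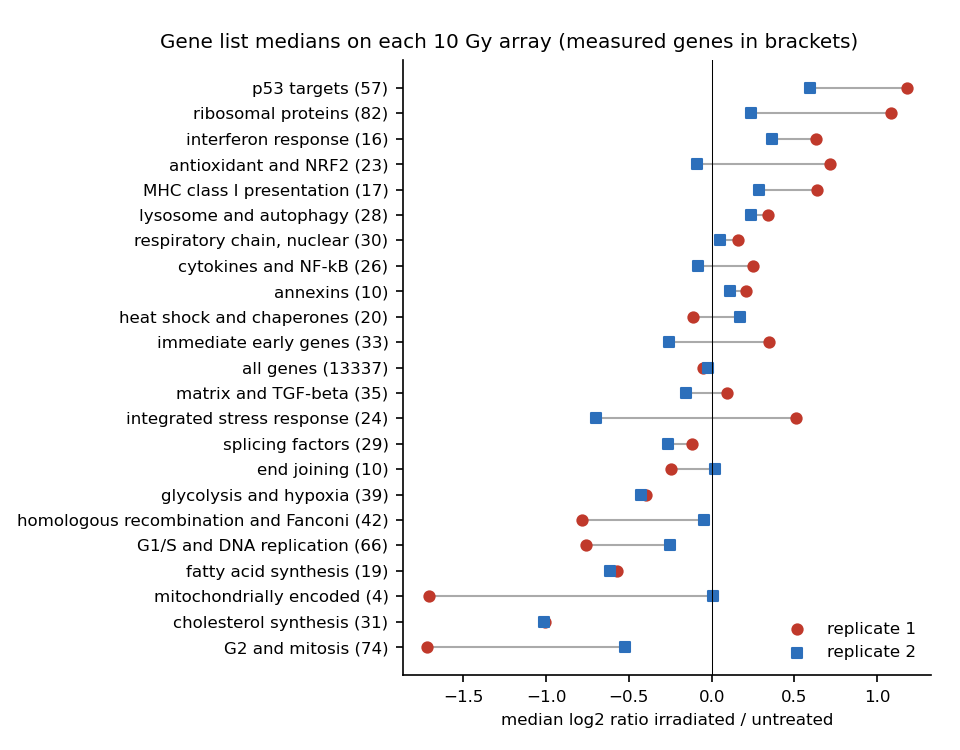
Median log2 ratio (irradiated over untreated cells) of the measured genes of each list in 10 Gy replicate 1 (circles) and replicate 2 (squares). Cholesterol synthesis genes had medians of -1.0 and -1.01 on the 2 arrays, and integrated stress response genes had medians of 0.51 and -0.70.

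Genes that p53 is known to activate were mostly higher after 10 Gy. Of 57 measured p53 target genes on a list of 59, 38 rose, 5 fell and 14 did not pass the test, beside 12.4% higher and 15.8% lower among all genes. The median mean log2 ratio was 0.91, against -0.06 over all genes, with medians of 1.18 in replicate 1 and 0.59 in replicate 2. With replicate 1 left out 33 of them were called higher, and with replicate 2 left out 44. On both arrays 20 were at least 2-fold higher and none was 2-fold lower. Between the arrays 30 were called higher in replicate 1 and 3 lower (limma, replicate 1 minus replicate 2), where 14.3% and 17.7% of all genes were called.

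Among the genes of arrest and feedback, 11 of 17 rose and 2 fell. The cyclin-dependent kinase inhibitor Cdkn1a (p21) had a signal of 14.87 and 14.37 in irradiated cells, against 11.14 and 12.91 in untreated cells. Both irradiated samples lay above both untreated ones, and the untreated samples differed more than the irradiated ones. Its log2 ratios were 3.73 and 1.47 (mean 2.6 ± 0.39 SE, n = 2, 6.05-fold, limma adjusted p = 0.00166), from a probe with a saturated spot, which leaves the ratio inexact. Mdm2, the ubiquitin ligase that p53 induces against itself, had a signal of 13.61 and 12.16 in irradiated cells, against 10.71 and 10.78 in untreated cells, and log2 ratios of 2.90 and 1.38 (limma adjusted p = 0.000991). Ccng1, cyclin G1, was among the few targets higher in replicate 2 (1.55 and 2.44). Btg2, an antiproliferative factor, rose by 3.59 and 1.38, Trp53inp1, a p53-induced stress protein, by 3.06 and 2.02, and the phosphatase gene Ppm1d, which dampens the damage signal, by 1.01 and 0.78. Of these, Ppm1d was not called different between the arrays (limma adjusted p = 0.384). Plk2 and Zmat3 were at 1.09 and -0.01 and at 1.18 and -0.25, which did not pass the test. The 2 that fell were Sfn, the protein 14-3-3 sigma (-0.65 and -0.60), and Cop1, another ubiquitin ligase of p53 (-1.46 and -0.19), whose call was lost in 11 alternatives. Trp53 itself was at -0.18 and 0.11 and did not pass the test (mean -0.03 ± 0.13, SE, limma adjusted p = 0.871).

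Of 15 genes of apoptosis 12 rose and none fell. Pmaip1 (Noxa), a BH3-only protein, had a signal of 14.16 and 11.29 in irradiated cells, against 9.0 and 9.41 in untreated cells, so that both irradiated samples exceeded both untreated ones, replicate 1 by far the most. Its log2 ratios were 5.16 and 1.87 (mean 3.52 ± 0.55 SE, n = 2, 11.5-fold, limma adjusted p = 0.00194). Bbc3 (Puma), also a BH3-only protein, was at 3.11 and 1.68, the death receptor Fas at 3.05 and 1.79 and Ei24 at 2.13 and 1.62. Bax, the pore-forming effector, was at 2.13 and 0.75, again from a probe with a saturated spot. Tnfrsf10b, the TRAIL receptor of the mouse, was higher in replicate 2 (0.76 and 1.18). Of the 9 repair genes 3 rose, the nuclease gene Ercc5 (1.44 and 1.18), the polymerase gene Polk (1.09 and 1.16) and the damage sensor Xpc (0.64 and 0.19). Rev3l, the catalytic subunit of polymerase zeta (-1.34 and -0.90), and Fancc (-0.35 and -0.47) fell. Fancc was not above background in irradiated cells of replicate 2, so its ratio there is not exact. Gadd45a was at 1.92 in replicate 1 and at 0.03 in replicate 2, a difference between the arrays (limma adjusted p = 0.000776).

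Of 16 p53 targets of metabolism and stress 12 rose and 1 fell. The widest gap between the arrays on the list was that of Gdf15, a stress-induced cytokine of the TGF-beta family. Its signal was 13.72 and 8.63 in irradiated cells, against 8.26 and 8.11 in untreated cells, with the irradiated sample of replicate 1 far above the other 3. The log2 ratios were 5.45 and 0.53 (limma adjusted p = 0.0222 for the mean, and 8.02e-07 for the difference between the arrays). Aldh4a1, which degrades proline, was at 2.88 and 1.95, Ddit4, an inhibitor of mTORC1 signalling, at 2.78 and 1.52 and Cpt1c, a carnitine palmitoyltransferase, at 1.94 and 1.59. Tigar, a fructose-bisphosphatase, was higher in replicate 2 (0.20 and 1.03). The only member of this group that fell was Gls2, a glutaminase (-0.42 and -1.04).

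**Figure D3:**
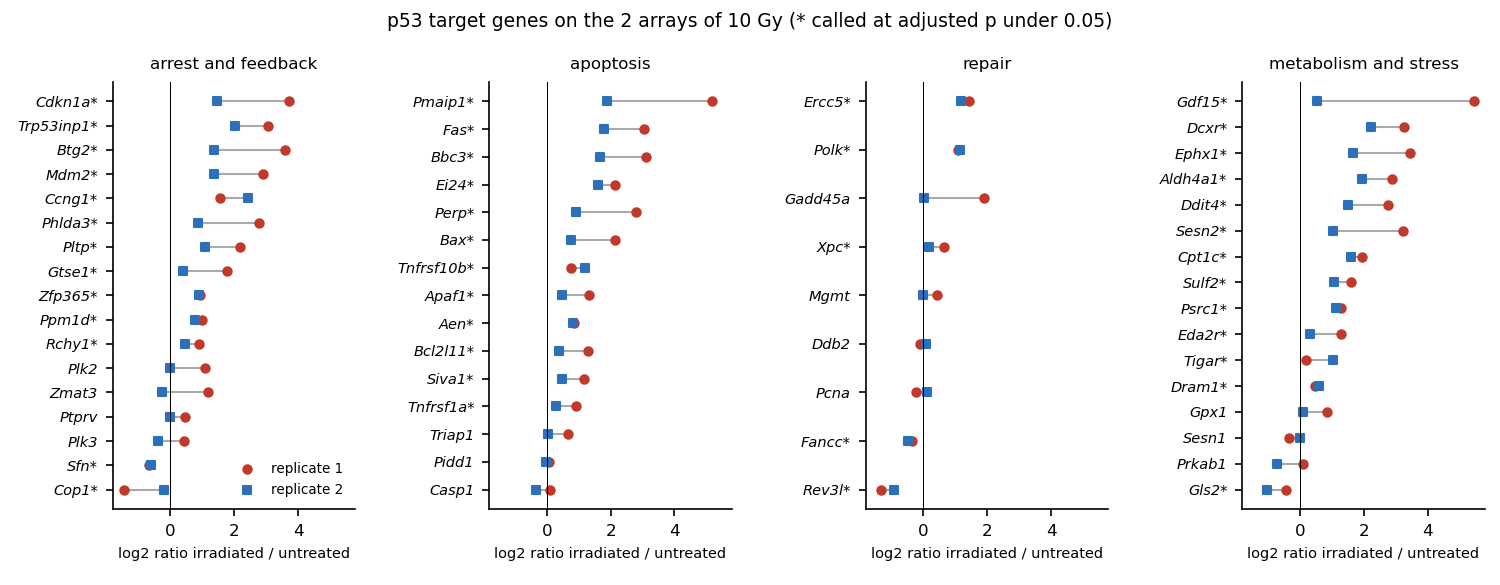
Log2 ratios (irradiated over untreated cells) of the 57 measured p53 target genes in 10 Gy replicate 1 (circles) and replicate 2 (squares), grouped by role, with an asterisk for genes called in limma. Pmaip1 and Gdf15 had the widest gaps between the arrays, and Ccng1, Tnfrsf10b and Tigar lay higher in replicate 2.

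Promoters of p53 target genes are shown because the list moved together on both arrays. A p53 half-site, the decamer that p53 binds in pairs, was searched by name on both strands in the RefSeq promoters (GRCm38.p6), 250 bases before to 50 after the transcription start. It was found for 13 of 47 targets with a promoter in the table (27.7%) and for 8.31% of the 10449 tested genes with one. A match describes letters and is not a binding site. The members with the smallest p that held a half-site were Ei24 (chr9:36797285-36797584 on the minus strand, half-site 10 bases before the start) and Ccng1 (chr11:40755237-40755536 on the minus strand, 185 bases before it). Capitals mark the half-site.
Ei24: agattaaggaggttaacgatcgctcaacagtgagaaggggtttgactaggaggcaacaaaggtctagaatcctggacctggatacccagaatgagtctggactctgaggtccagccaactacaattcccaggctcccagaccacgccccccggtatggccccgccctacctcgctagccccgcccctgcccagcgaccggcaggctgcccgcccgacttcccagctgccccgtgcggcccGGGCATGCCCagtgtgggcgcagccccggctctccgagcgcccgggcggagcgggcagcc
Ccng1: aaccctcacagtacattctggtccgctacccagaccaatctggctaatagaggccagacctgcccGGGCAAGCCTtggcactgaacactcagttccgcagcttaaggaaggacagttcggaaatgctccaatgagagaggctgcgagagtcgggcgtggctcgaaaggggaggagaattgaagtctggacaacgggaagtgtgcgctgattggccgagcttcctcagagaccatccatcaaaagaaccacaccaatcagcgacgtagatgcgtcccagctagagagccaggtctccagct

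Genes of G2 and mitosis were lower on both arrays, by much more in replicate 1. Of 74 measured genes on a list of 75, 57 fell, 1 rose and 16 did not pass the test. Among all genes 15.8% were called lower and 12.4% higher. The median log2 ratio was -1.72 in replicate 1 and -0.52 in replicate 2. Leaving out replicate 1 gave 43 called lower, and leaving out replicate 2 gave 66. On both arrays 4 were at least 2-fold lower, where 0.622% of all genes were. The 4 were Ccna2, Ccnb1, Cks2, a subunit of cyclin-dependent kinases (-1.91 and -1.08), and Cenpf, a kinetochore protein (-2.12 and -1.20).

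Of the cyclins, kinases and phosphatases 15 of 20 fell and none rose. The signal of Ccnb1, cyclin B1, was 9.34 and 11.61 in irradiated cells, against 12.83 and 12.65 in untreated cells. Both irradiated samples lay below both untreated ones, and the replicate 1 sample lay lowest (limma adjusted p = 0.00421 for the mean). Ccna2 had a signal of 11.34 and 12.53 in irradiated cells, against 14.41 and 14.22 in untreated cells (limma adjusted p = 0.000675). Cdk1, the kinase that both cyclins activate, was at -2.0 and -0.90, and Plk1, the polo-like kinase of mitotic entry, at -3.03 and -0.57. Aurka, a spindle pole kinase, was at -2.25 and -0.47 and Bub1, a spindle checkpoint kinase, at -2.07 and -0.82. Wee1, which holds Cdk1 inactive, did not pass the test (-0.30 and 0.01), and neither did Ccnf, cyclin F, with opposite signs (-0.26 and 0.67).

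Of 12 genes of anaphase promotion and cohesion 7 fell, among them the activator Cdc20 (-2.02 and -0.49) and the conjugating enzyme Ube2c (-1.90 and -0.62). Fzr1, the activator of late mitosis and G1, was at -1.19 and 0.54 and did not pass. Of 20 kinetochore and chromatin genes 16 fell, with Top2a, topoisomerase 2, at -1.86 and -0.97, Smc2 of condensin at -1.62 and -0.99, Cenpe, a kinetochore motor, at -2.69 and -0.83 and the scaffold gene Knl1 at -1.72 and -0.98. Knl1 was not above background in irradiated cells on either 10 Gy array, so it was at least 1.3-fold lower and its ratios are not exact. Of 22 spindle and cytokinesis genes 19 fell, led by Prc1, which bundles the midzone microtubules (-3.59 and -0.57), Cep55 of abscission (-2.88 and -0.91) and the kinesin Kif22 (-3.07 and -0.67). The only member that rose was Ckap2, a microtubule protein (1.44 and 0.61).

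The cell cycle homology region (CHR) is an element bound by the DREAM and MYB-MuvB complexes in promoters of such genes. The letters TTTGAA or TTCGAA, on either strand, were found for 43 of 62 G2 and mitosis genes with a promoter (69.4%) and for 16.4% of all tested genes. The CCAAT box (CCAAT, either strand) was found for 44 of 62 (71%) and for 42.7% of all. The members with the smallest p that held a CHR were Smc2 (chr4:52438971-52439270 on the plus strand), with matches 145 bases before and 26 after the start, and Knl1 (chr2:119046869-119047168 on the plus strand), 31 after it. Capitals mark the CHR.
Smc2: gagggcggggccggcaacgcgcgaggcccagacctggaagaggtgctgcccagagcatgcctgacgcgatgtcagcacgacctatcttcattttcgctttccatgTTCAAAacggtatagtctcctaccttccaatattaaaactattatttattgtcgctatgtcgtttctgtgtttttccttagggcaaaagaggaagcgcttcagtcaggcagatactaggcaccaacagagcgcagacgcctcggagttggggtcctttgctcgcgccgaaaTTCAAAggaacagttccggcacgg
Knl1: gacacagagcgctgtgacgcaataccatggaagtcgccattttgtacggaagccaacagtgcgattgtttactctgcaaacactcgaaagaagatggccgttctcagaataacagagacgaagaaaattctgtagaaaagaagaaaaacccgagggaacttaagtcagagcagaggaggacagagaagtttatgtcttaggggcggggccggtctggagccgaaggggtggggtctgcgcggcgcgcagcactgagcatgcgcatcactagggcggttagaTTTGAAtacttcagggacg

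The G1/S and DNA replication list moved less. Of 66 genes, all of them measured, 36 fell, 1 rose and 29 did not pass the test, beside 15.8% lower and 12.4% higher among all genes. The medians were -0.76 in replicate 1 and -0.25 in replicate 2. Calls of lower genes numbered 23 without replicate 1 and 50 without replicate 2. The list held Ung, which removes uracil from DNA (-1.65 and -1.23), as its only member at least 2-fold lower on both arrays. Of 20 genes of origins and the replicative helicase 14 fell, among them Cdc45 (-0.76 and -0.84) and Mcm4 (-1.20 and -0.69). Of 29 genes of the fork and of nucleotide supply 16 fell, among them Rfc1 of the clamp loader (-1.65 and -0.71), Prim1 of primase (-1.16 and -0.68) and Tyms, thymidylate synthase (-0.81 and -0.59). Of the cyclins and E2F factors 6 of 17 fell, among them Rbl1, the pocket protein p107 (-1.92 and -0.91). The 1 that rose was Rb1, the retinoblastoma protein (1.13 and 1.22). Ccnd1, cyclin D1, was at 1.37 in replicate 1 and -0.05 in replicate 2. The letters TTTCCCGC or TTTGGCGC of an E2F site, on either strand, were found for 17 of 53 of these genes (32.1%) and for 3.3% of all tested genes.

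The genes that repair and signal DNA breaks differed between the arrays. Of 42 genes of homologous recombination, the Fanconi pathway and checkpoints on a list of 45, 15 fell and 3 rose. Among all genes 15.8% were called lower and 12.4% higher. The medians were -0.78 in replicate 1 and -0.04 in replicate 2. Leaving out replicate 1 gave 9 lower and 6 higher, and leaving out replicate 2 gave 28 lower and 2 higher. Chek1, a checkpoint kinase, fell on both arrays (-1.18 and -0.92), as did Exo1, the resection nuclease (-1.79 and -0.85), Fancd2 (-0.86 and -0.77) and Topbp1, an activator of ATR (-1.98 and -0.85). The 3 that rose were Rad51d, a recombination factor (0.61 and 1.26), Rad52 (0.37 and 0.32) and the kinase gene Chek2 (0.31 and 0.62). The call of Rad52 was lost in 13 alternatives and that of Chek2 in 14. Chek2 was not above background in untreated cells of replicate 1, so its ratio there is not exact. Brca1, which acts in end resection, had a signal of 8.83 and 11.04 in irradiated cells, against 10.45 and 10.32 in untreated cells. The irradiated sample of replicate 1 lay below both untreated ones and that of replicate 2 above them, and the log2 ratios of -1.63 and 0.72 differed between the arrays (limma adjusted p = 7.61e-05). Atm, the kinase that responds to breaks, was at -0.81 and 0.00. Of 10 end joining genes Nhej1 rose (1.01 and 0.73), Polm fell (-0.85 and -0.11) and 8 did not pass the test, counts close to the shares of all genes. The call of Polm was lost in 15 alternatives.

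Genes of cholesterol synthesis fell on both arrays, with like medians. Of 31 measured genes on a list of 34, 22 fell, 2 rose and 7 did not pass the test, beside 15.8% lower and 12.4% higher among all. Their medians were -1.0 in replicate 1 and -1.01 in replicate 2, and 13 were at least 2-fold lower on both arrays, where 0.622% of all genes were. Replicate 2 alone called 19 of them lower and replicate 1 alone called 22, and 2 were called higher and 10 lower in replicate 1 than in replicate 2. Of the 11 enzymes that lead from acetyl-CoA through mevalonate to lanosterol 10 fell. Fdps, farnesyl diphosphate synthase, had a signal of 11.08 and 10.50 in irradiated cells, against 12.98 and 12.67 in untreated cells. Both irradiated samples lay below both untreated ones, and the log2 ratios were -1.90 and -2.17 (mean -2.04 ± 0.14 SE, n = 2, 4.1-fold lower, limma adjusted p = 0.000159), with no call between the arrays (limma adjusted p = 0.407). Hmgcs1, HMG-CoA synthase, had a signal of 10.24 and 11 in irradiated cells, against 12.15 and 12.01 in untreated cells and log2 ratios of -1.91 and -1.02. Sqle, squalene epoxidase, was at -2.15 and -1.24, Idi1, isopentenyl-diphosphate isomerase, at -1.97 and -1.10, and Lss, lanosterol synthase, at -1.23 and -1.17.

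Of 10 genes from lanosterol to cholesterol 7 fell. Msmo1, a methylsterol oxidase, was at -2.71 and -1.48, Cyp51, lanosterol demethylase, at -1.34 and -1.23 and Sc5d, a sterol desaturase, at -1.76 and -1.01. Tm7sf2, a sterol reductase, had opposite signs (0.26 and -1.19). Of 10 genes of control and uptake 5 fell and 2 rose. Srebf2, which encodes the transcription factor SREBP-2 that drives the pathway, fell on both arrays (-1.54 and -1.65). Of the 3 other probes of Srebf2, only 2 shared the sign of its mean. Insig1, which restrains the activation of SREBP-2, was at -1.0 and -1.13. The 2 that rose were Nr1h2, the oxysterol receptor LXR beta (0.52 and 0.78), and Npc2, which carries cholesterol out of lysosomes (1.13 and 0.15), whose call was lost in 12 alternatives.

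Of 19 fatty acid synthesis genes 11 fell and 1 rose, beside 15.8% lower and 12.4% higher among all genes. The medians of the 19 genes were -0.57 in replicate 1 and -0.61 in replicate 2. Either array alone called 10 of them lower. The desaturases Scd2 (-2.76 and -2.04) and Scd1 (-2.23 and -0.94), the elongase Elovl6 (-3.07 and -0.81), the ligase Acsl3 (-1.80 and -0.90) and Srebf1, which encodes SREBP-1 (-1.32 and -0.77), fell. The 1 that rose was Lpin1, a phosphatidate phosphatase (2.69 and 1.75). The sterol regulatory element TCACNCCAC, on either strand, was found for 1 of 23 cholesterol genes with a promoter (4.35%) and for 1.45% of all tested genes. That gene was Hmgcs1 (chr13:119690101-119690400 on the plus strand), with the element in capitals, 137 bases before the start.
Hmgcs1: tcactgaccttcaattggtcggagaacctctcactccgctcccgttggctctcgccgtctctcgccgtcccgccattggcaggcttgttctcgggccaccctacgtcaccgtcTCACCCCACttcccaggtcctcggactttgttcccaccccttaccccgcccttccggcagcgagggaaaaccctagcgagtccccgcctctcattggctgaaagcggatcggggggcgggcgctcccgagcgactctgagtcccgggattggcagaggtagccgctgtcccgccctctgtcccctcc

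Glycolysis and hypoxia genes also had like medians on the arrays, below 0. Of 39 measured genes on a list of 41, 17 fell and none rose, beside 15.8% lower and 12.4% higher among all genes. The medians were -0.39 in replicate 1 and -0.43 in replicate 2. The test called 17 lower without either 10 Gy replicate too, and 2 higher without replicate 2. With median centring in place of loess 15 fell and 9 rose. Of 23 genes of transport and glycolysis 8 fell. Slc2a1, the glucose transporter GLUT1, was at -1.79 and -1.56, Slc16a3, the lactate exporter MCT4, at -1.66 and -1.40, Pdk1, which inactivates pyruvate dehydrogenase, at -1.27 and -1.61 and Pfkfb3, which makes an activator of glycolysis, at -1.04 and -1.04. The enzymes of the glycolytic trunk Aldoa (0.37 and 0.08), Ldha (0.15 and 0.14) and Pgk1 (-0.17 and -0.01) did not pass the test. Of 16 hypoxia targets and regulators 9 fell, among them Bnip3, Adm, Hif1a itself (-1.44 and -0.31) and the oxygen sensor Egln1 (-0.63 and -1.12). Vegfa, the endothelial growth factor, had opposite signs (0.80 and -0.75) and differed between the arrays (limma adjusted p = 0.000408).

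The next question was where the 2 arrays disagreed. Replicate 1 minus replicate 2 was tested in limma with the spread taken from the other regimens, and 1913 genes (14.3%) were called higher and 2366 (17.7%) lower in replicate 1. In 203 genes (1.52%) the signs were opposite, with a size of at least 0.5 on each array, 96 of them higher and 107 lower in replicate 1. The signal of the irradiated channel differed more between the arrays than that of the untreated channel in 200 of the 203. Their other probes had the same opposite pattern in 54 of 101 cases (53.5%).

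The integrated stress response was the list with the most opposite signs among those of over 20 genes. In this pathway, phosphorylation of the initiation factor eIF2 raises the translation of Atf4, which activates genes of amino acid synthesis and transport and, under lasting stress, of cell death. Of 24 measured genes on a list of 26, 17 had opposite signs, beside 39.5% of all genes. The median log2 ratio was 0.51 in replicate 1 and -0.70 in replicate 2. The test of the mean called 3 higher and 1 lower, beside 12.4% higher and 15.8% lower among all genes. The 3 higher are near the share of all genes. The median difference in signal between replicates 1 and 2 was 1.21 in irradiated cells and -0.04 in untreated cells. The median of the mean log2 ratios was -0.13, and 0.24 with median centring.

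Atf4 itself was at 0.38 and -0.80. Chac1, which degrades glutathione, had a signal of 12.29 and 8.94 in irradiated cells, against 10.28 and 10.45 in untreated cells. The irradiated sample of replicate 1 lay above both untreated samples and that of replicate 2 below them (log2 ratios 2.02 and -1.51, limma adjusted p = 8.6e-05 for the difference). Trib3, a pseudokinase that restrains Akt, had a signal of 12.29 and 8.98 in irradiated cells, against 11.30 and 11.03 in untreated cells, with the irradiated samples again on either side of the untreated ones. Among enzymes of amino acid synthesis, Asns, asparagine synthetase, was at 0.50 and -1.47, Psph of the serine pathway at 0.79 and -1.48, Pycr1 of the proline pathway at 0.24 and -1.62 and Gpt2, a transaminase, at 0.52 and -2.11. Ddit3 (CHOP), a transcription factor of stress-induced death, was at 1.44 and -0.25, and the stress protein Nupr1 at 1.37 and -0.99. Sesn2 (3.24 and 1.05), Ppp1r15a, which restores eIF2 (1.30 and 0.32), and the transporter gene Slc1a4 (1.02 and 0.38) rose. Sesn2 is a p53 target too and stands on both lists. Pck2, mitochondrial phosphoenolpyruvate carboxykinase, fell on both arrays (-0.85 and -1.68).

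**Figure D4:**
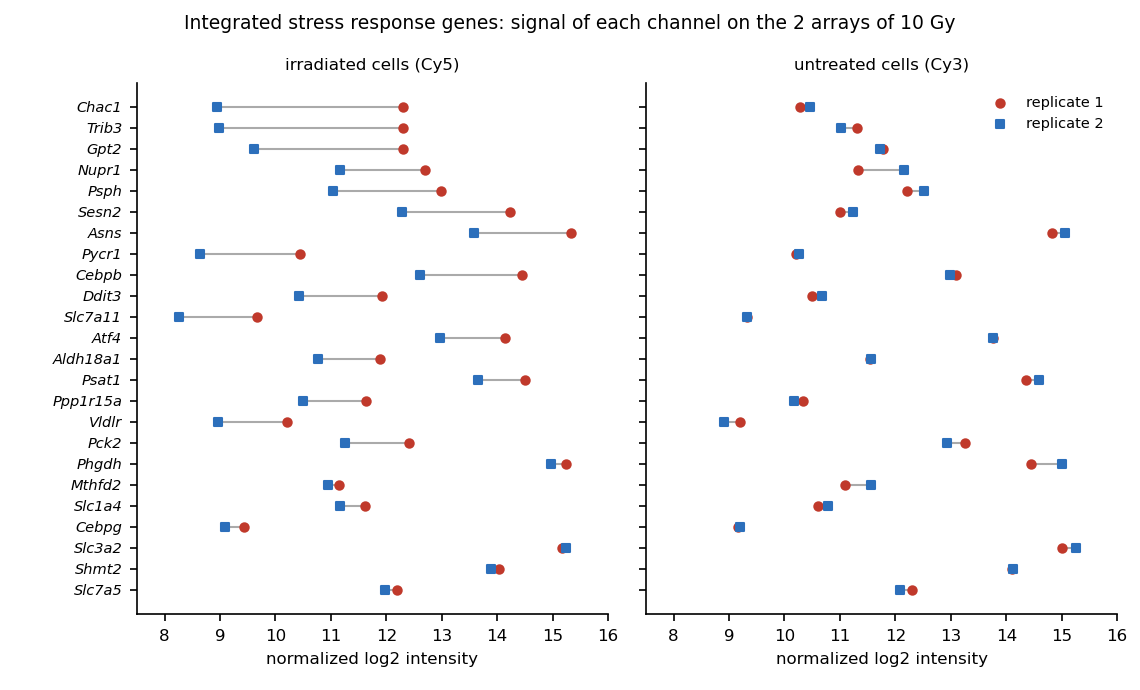
Normalized log2 intensity of 24 integrated stress response genes in irradiated cells (left) and untreated cells (right), in 10 Gy replicate 1 (circles) and replicate 2 (squares). The gaps between the arrays are wide in irradiated cells, with a median of 1.21, and narrow in untreated cells, with a median of -0.04.

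Promoters of this list are shown because its members moved together, in opposite directions on the 2 arrays, and this motif and set were chosen after the values had been seen. The amino acid response element TGATGNAA, on either strand, is the composite site of C/EBP and ATF factors. Its letters were found for 9 of 23 list genes with a promoter (39.1%) and for 2.73% of all tested genes. In the promoter of Chac1 (chr2:119350992-119351291 on the plus strand) the element, in capitals, lies 193 bases before the start, and in that of Trib3 (chr2:152344011-152344310 on the minus strand) 14 after it.
Chac1: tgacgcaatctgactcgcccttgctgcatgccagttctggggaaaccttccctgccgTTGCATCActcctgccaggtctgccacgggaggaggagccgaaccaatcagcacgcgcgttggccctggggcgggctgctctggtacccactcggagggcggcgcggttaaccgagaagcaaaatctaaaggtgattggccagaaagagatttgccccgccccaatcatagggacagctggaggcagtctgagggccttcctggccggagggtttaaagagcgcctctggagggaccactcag
Trib3: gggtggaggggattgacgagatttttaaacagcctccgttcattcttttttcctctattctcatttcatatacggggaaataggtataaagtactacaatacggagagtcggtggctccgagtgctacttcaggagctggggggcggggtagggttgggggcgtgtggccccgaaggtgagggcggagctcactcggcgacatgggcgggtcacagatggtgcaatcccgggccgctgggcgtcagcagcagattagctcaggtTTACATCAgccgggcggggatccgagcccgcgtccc

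Outside that list, the widest opposite gaps with replicate 1 higher were those of Slc30a1, a zinc exporter (1.97 and -0.78), Col7a1, the collagen of anchoring fibrils (1.69 and -0.85), Osgin1 (1.91 and -0.58), the receptor partner Ramp3 (1.58 and -0.83) and the homeobox gene Lbx2 (1.69 and -0.65). With replicate 1 lower they were those of the collagen gene Col3a1 (-2.32 and 0.56), the transporter gene Slco4a1 (-1.51 and 0.94), the histone gene H2ac13 (-1.58 and 0.79), Brca1, the formin Fhod1 (-0.97 and 1.34) and the mitochondrial ATP6 (-1.66 and 0.54). Hrob (-1.59 and 0.52), Eva1b (-1.18 and 0.73) and the kinase gene Map3k3 (-1.39 and 0.50) also belonged to that group. Slco4a1 in replicate 1, and Ramp3 and Lbx2 in replicate 2, were not above background in irradiated cells, so those ratios are not exact. In Col3a1 the untreated signal differed more between the arrays than the irradiated one (13.80 and 14.82 in irradiated cells, against 16.13 and 14.26 in untreated cells). The same held for H2ac13, one of a family of near-identical histone genes (14.65 and 14.97 in irradiated cells, against 16.23 and 14.18 in untreated cells), and for ATP6 (14.88 and 15.45 in irradiated cells, against 16.54 and 14.90 in untreated cells). The probe of ATP6 had a saturated spot, which leaves its ratios inexact.

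Immediate early genes were split. Of 33 measured genes on a list of 36, 7 rose and 7 fell, beside 12.4% higher and 15.8% lower among all genes. The medians were 0.35 in replicate 1 and -0.26 in replicate 2. Replicate 2 alone called 6 higher and 12 lower, and replicate 1 alone 16 higher and 9 lower. Fos had no probe above background on enough arrays to be tested. Id1, an inhibitor of differentiation factors, rose on both arrays (2.25 and 1.5), as did the zinc finger gene Klf4 (2.40 and 0.63). Klf2, whose other probe did not share the sign (-1.40 and -1.59), and the feedback inhibitors Spry1 (-1.54 and -0.99) and Errfi1 (-1.30 and -0.91) fell. Atf3 had a signal of 11.20 and 9.0 in irradiated cells, against 9.23 and 9.30 in untreated cells, with the irradiated sample of replicate 1 above both untreated ones and that of replicate 2 below them (limma adjusted p = 8.6e-05 for the difference). Egr1, a growth factor response gene, was at -0.10 and -1.59 and Myc at 0.77 and -0.31, and neither passed the test of the mean.

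Of 26 measured genes of cytokines and NF-kB on a list of 35, 4 rose and 3 fell, near the shares of all genes (12.4% higher and 15.8% lower). Those that rose were the chemokine gene Ccl7 (1.44 and 0.31), the kinase subunit Ikbkg (1.02 and 0.69) and the NF-kB subunits Nfkb2 (0.20 and 0.99) and Rela (0.39 and 0.74). Those that fell were Nfkb1 (-0.71 and -0.26), the inhibitor Tnfaip3 (-0.58 and -0.82) and the cytokine Il11 (-0.31 and -1.19). Of the 13 ligands 7 were called higher in replicate 1 than in replicate 2, among them the macrophage growth factor Csf1 (1.6 and -0.27) and the chemokine Cxcl1 (1.20 and -0.33). Of the 26, replicate 2 alone called 3 higher and 6 lower, and replicate 1 alone 9 higher and 3 lower.

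Genes of antigen presentation through MHC class I were called higher or not at all. Of 17 measured genes on a list of 18, 9 rose and none fell, beside 12.4% higher and 15.8% lower among all genes. In 6 the signs were opposite on the arrays, near the share of all genes (39.5%). The medians of the 17 genes were 0.63 in replicate 1 and 0.29 in replicate 2. With replicate 1 left out 5 of them were called higher, and with replicate 2 left out 13. Tap1, a subunit of the peptide transporter, had a signal of 9.85 and 9.42 in irradiated cells, against 7.70 and 8.33 in untreated cells, with both irradiated samples above both untreated ones (log2 ratios 2.15 and 1.09, limma adjusted p = 0.000889). The untreated signal of Tap1 in replicate 1 was not above background, so its ratio there is not exact. Tapbp, tapasin, was at 0.63 and 0.56, and the immunoproteasome subunit Psmb8 at 1.36 and 0.58. The heavy chains H2-D1 (1.03 and 0.34) and H2-L (0.97 and 0.32) rose, although the signal of a probe may come from either, since the genes are near-identical. The light chain B2m had opposite signs (0.78 and -0.23). Of 16 measured interferon response genes on a list of 28, 8 rose and 1 was called lower, beside the same 12.4% and 15.8% of all genes. Ifi35 was at 1.55 and 1.29, the transcription factor Irf1 at 1.53 and 0.73, Irgm1 at 0.92 and 1.06 and Isg15, a ubiquitin-like modifier, at 0.64 and 0.55. Irf7 was called lower (-0.22 and -0.65), but was above background on neither 10 Gy array in irradiated cells and on 1 in untreated cells, so its ratios are not exact. Replicate 2 alone called 7 of the 16 higher, and replicate 1 alone called 9.

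Of 23 antioxidant and NRF2 genes 7 rose and 1 fell, beside 12.4% higher and 15.8% lower among all genes. The medians were 0.71 in replicate 1 and -0.09 in replicate 2. Calls numbered 5 higher and 4 lower without replicate 1, and 15 higher and 2 lower without replicate 2. Nqo1, a quinone reductase, rose on both arrays (2.49 and 1.74), as did Gss, glutathione synthetase (1.35 and 1.35). Hmox1, heme oxygenase, had a signal of 14.33 and 11.83 in irradiated cells, against 11.59 and 12.09 in untreated cells, with only the irradiated sample of replicate 1 well above the rest (log2 ratios 2.74 and -0.26, limma adjusted p = 3.94e-05 for the difference). Srxn1, sulfiredoxin, fell (-0.61 and -0.89), and its mean over all its kept probes was 0.10. Of 20 heat shock and chaperone genes 6 rose and 2 fell, beside 12.4% and 15.8% of all genes, and with median centring 9 rose and 1 fell. Besides Cryab, the small heat shock protein Hspb8 (1.38 and 0.61) and the cochaperone Bag3 (1.56 and 0.29) rose, and Hsph1 (-1.63 and -0.95) fell. Hsp90aa1 fell too (-0.91 and -0.38), and stood at a mean of 0.09 with median centring.

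Ribosomal protein genes were higher in replicate 1 above all. Of 82 genes 47 rose and 1 fell, beside 12.4% higher and 15.8% lower among all genes. The medians were 1.08 in replicate 1 and 0.24 in replicate 2. With median centring 77 rose, and the median of the mean log2 ratios was 1.36, against 0.72 with loess. Calls of higher genes numbered 12 without replicate 1 and 68 without replicate 2. A saturated spot was found for 48 of the 82, which leaves their ratios inexact, and 1 gene was left when spots with a flag in the files were dropped. Their signal in untreated cells was lower in replicate 1 than in replicate 2 by a median of 0.97, and the part of this in the ratio was not tested. Of 30 nuclear genes of the respiratory chain 3 rose and 2 fell, beside 12.4% higher and 15.8% lower among all genes. With median centring 19 of the 30 rose and 0 fell. Of the 4 mitochondrially encoded genes measured on a list of 13, 2 fell, with medians of -1.70 in replicate 1 and 0.01 in replicate 2, and with median centring none was called. Their untreated signal was higher in replicate 1 by a median of 1.26. Of the genes often used as references, Gapdh was at 0.05 and 0.02, Actb at 0.11 and -0.29, Hprt at -0.08 and 0.07 and Tbp at -0.64 and 0.23, and none passed the test. With median centring the mean of Gapdh was 0.73 and that of Hprt 0.52, and both were called.

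**Figure D5:**
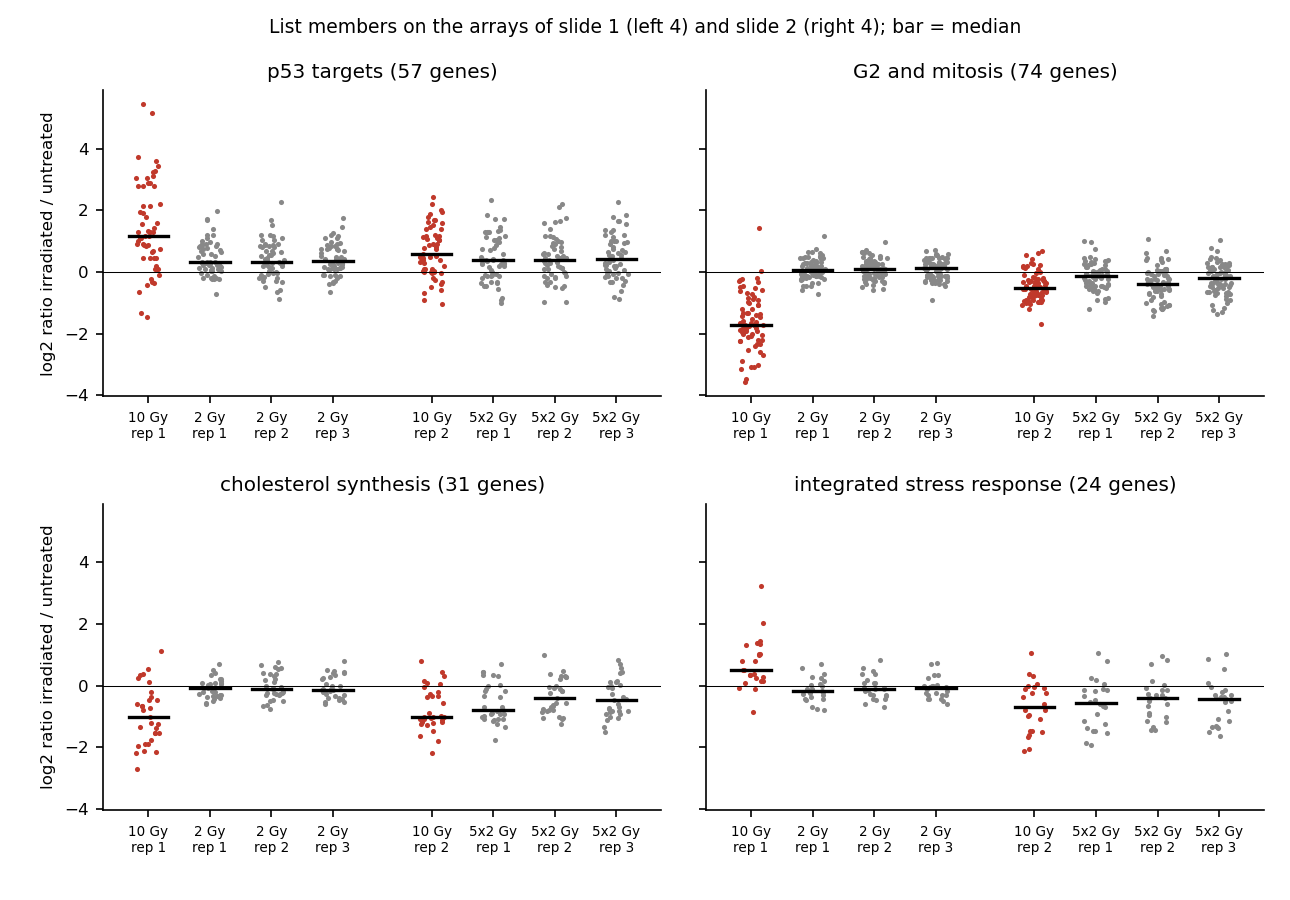
Log2 ratios (irradiated over untreated cells) of the members of 4 lists on the 8 arrays, with 10 Gy replicate 1 beside the 2 Gy arrays of slide 1 and 10 Gy replicate 2 beside the 5x2 Gy arrays of slide 2. Points are genes and bars are medians. The G2 and mitosis median was -1.72 in 10 Gy replicate 1, against 0.11 for the 2 Gy means.

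Each 10 Gy array could be set against another regimen within its slide, which leaves the slide out of the difference. Within slide 1, 10 Gy replicate 1 was higher than the mean of the 3 arrays of 2 Gy for 1612 genes (12.1%) and lower for 2663 (20%), with the lone 10 Gy array assumed to vary like the other regimens. Of the p53 targets 38 of 57 were called higher and 3 lower. Gdf15 was at 5.45 after 10 Gy, against 0.56 after 2 Gy, a difference of 4.89. In 10 Gy replicate 2, on the other slide, Gdf15 was at 0.53. The p-values and intervals within a slide take their spread from the 2 Gy and 5x2 Gy arrays. They do not measure the spread among 10 Gy arrays. Cdkn1a was at 3.73 after 10 Gy, against 0.88 after 2 Gy (limma adjusted p = 8.36e-06). Ccng1 differed by 0.43 (95% interval 0.03 to 0.83) and was not called (limma adjusted p = 0.0919). Of the G2 and mitosis genes 69 of 74 were called lower, with a median of -1.72 after 10 Gy, against 0.11 after 2 Gy. Plk1 was at -3.03 after 10 Gy, against 0.42 after 2 Gy. Of the cholesterol genes 20 of 31 were called lower, with Scd2 of the fatty acid list at -2.76, against -0.01 after 2 Gy. Of the integrated stress response genes 17 of 24 were called higher. Ttbk1 differed by 0.24, which is not exact, since Ttbk1 was not above background in irradiated cells of 10 Gy replicate 1. Amh, not above background in irradiated cells of the 10 Gy arrays, has no exact difference either.

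Within slide 2, where both regimens add up to 10 Gy, 10 Gy replicate 2 was set against the 3 arrays of 5x2 Gy. Limma called 0 of 13337 genes (0%), with 1591 genes at an unadjusted p under 0.05 and a smallest adjusted p of 0.0617. This does not show that the regimens acted alike. Cdkn1a was at 1.47 after 10 Gy, against 1.27 after 5x2 Gy, and the interval of the difference was -0.28 to 0.68. For Mdm2 the values were 1.38 after 10 Gy, against 0.67 after 5x2 Gy (interval 0.22 to 1.20), and for Ccnb1 -1.05, against -0.28 (interval -1.21 to -0.33). Scd2 was at -2.04 after 10 Gy, against -0.94 after 5x2 Gy (interval -1.52 to -0.67). Intervals that leave out 0 for single genes are not adjusted for the number of genes. The medians of the p53 list were 0.59 after 10 Gy, against 0.39 after 5x2 Gy, those of the cholesterol list -1.01, against -0.59, and those of the integrated stress response -0.70, against -0.46. Between the 2 within-slide comparisons, regimen and slide cannot be told apart.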

How the data were processed

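The arrays measured RNA of irradiated (Cy5) and untreated (Cy3) LLC1 cells. Per the file headers, the deposited scanner files hold an intensity per spot and channel, quantified with ImaGene 9.0 and not normalized. What the flags on spots stand for is not given in the sources used here. The values the authors deposited in the series matrix are log2 ratios. Their scale and direction (Cy5 over Cy3) were settled by r of 0.998 to 1.000 and slopes of 0.993 to 0.999 against loess-normalized scanner values. The medians of its columns lay between -0.0045 and 0.0087.

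From the scanner files, mean signals were corrected with normexp (offset 50) and normalized by loess in limma 3.58.1 under R 4.3.3, with no scaling between arrays. The background level was 2.6 robust SD above the median of 153 negative controls, and 21685 of 41174 probes that exceeded it in either channel on 2 or more arrays were kept. Symbols came from RefSeq accessions (27190 probes), the file (7334) or older symbols (420), and 6230 probes had none. The probe with the highest mean signal stood for its gene. Channel levels were normalized between arrays by Aquantile. In limma, all 8 arrays gave the spread of a gene, and adjusted p-values are Benjamini-Hochberg over 13337 genes. The slides are those of the image names. The arrays' dose and replicate come from the labels. The script was tested on simulated data. Alternatives were background correction, centring, scaling, filters, probes, pixel signal, flags, slide and replicate blocks, weights, and arrays left out.

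The comparison, the gene lists and the rule for naming genes were chosen with earlier results of these data known. Named were up to 15 genes each way with the largest mean among those called and at least 2-fold on both arrays, up to 10 each way with the widest opposite gaps, up to 5 members of a list with the smallest p, up to 3 with the widest gaps and any called against its list, the 5 leading genes each way within a slide, and a set of p53, mitotic, sterol, early response and reference genes. Other members of a list were named for their role, after their values had been seen. Some genes that the rule names are not reported here.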

Additional observations from a re-analysis of the deposited data

Results flagged for a closer look

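The response of 10 Gy replicate 1 differed from that of 2 Gy on the same slide by a test of the difference itself (limma, 10 Gy replicate 1 minus the 2 Gy mean). In this comparison 1612 genes were higher and 2663 lower in the 10 Gy array. The largest differences upward were those of Gdf15 (4.89 ± 0.18 SE, limma adjusted p = 9.67e-08), Anxa8 (4.42), Cryab (4.41), Pmaip1 (4.23) and Svop, a synaptic vesicle protein (4.17). Anxa8 and Svop were below background in untreated cells on both 10 Gy arrays, so their differences are not exact. The largest differences downward were those of Sapcd2 (-3.70 ± 0.22 SE, limma adjusted p = 2.25e-06), Pimreg (-3.52), Plk1 (-3.45), Prc1 (-3.41) and Ccnb1 (-3.40), all genes of the dividing cell.

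In 10 Gy replicate 2, Anxa8 was at 2.63, Pmaip1 at 1.87, Cryab at 1.70, Gdf15 at 0.53 and Svop at 0.13. Of the genes lower in replicate 1, Ccnb1 was at -1.05, Plk1 at -0.57, Prc1 at -0.57 and Pimreg at -0.10, while Sapcd2 had the opposite sign (0.37). Each difference rests on 1 array of 10 Gy, with its spread taken from the other regimens. Without that array the comparison cannot be made.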

How the results depend on the processing

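The count of genes changed after 10 Gy (3769) was 222 with array weights, 300 with the 10 Gy arrays alone, 1459 with slide as a random block, 2266 with the replicate number as a block, 6492 with slide as a fixed block, and 2911 to 6057 with 1 array left out. The numbers were not read as pairs, since deviations of same-numbered arrays correlated at -0.243 to 0.114, and the replicate block took the genes different between the 10 Gy arrays (4279) to 2614. Median pixel signals took that count to 2798. Scaling between arrays took the genes at least 2-fold alike on both arrays (154 higher and 83 lower) to 107 in all. The comparison of replicate 2 with 5x2 Gy (0 genes) gave 8 without background correction, 11 without a filter, 6 with the strict filter, 7 with the mean over probes, 4 with median pixel signals and 0 to 1 with 1 array left out. With median centring 58.7% of calls were higher in irradiated cells, against 44.0%. The cause was not tested, except that blocks and fewer arrays change the degrees of freedom.

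Of 169 called genes among those named, 62 were called with array weights, 74 with the 10 Gy arrays alone and 61 in every alternative that gave a value, while all 30 leading genes were called in every alternative but 3 (29 with array weights, and 24 and 15 where the filter and the flags left fewer genes). The sign turned with median centring for Atp5pb (0.19), Hprt (0.52), Hsp90aa1 (0.090) and Sparc (0.18), with the mean over probes for Srxn1 (0.10), and for the ribosomal median with flagged spots left out (-0.16, 1 gene). With 1 array left out, the signs turned within these ranges, set by the 2 arrays of 10 Gy: Acss2 (-0.89 to 0.52), ATP6 (-1.66 to 0.54), Brca1 (-1.63 to 0.72), Chac1 (-1.51 to 2.02), Col3a1 (-2.32 to 0.56), Col7a1 (-0.85 to 1.69), Dusp1 (-0.45 to 1.34), Eva1b (-1.18 to 0.73), Fhod1 (-0.97 to 1.34), Gpt2 (-2.11 to 0.52), H2ac13 (-1.58 to 0.79), Hrob (-1.59 to 0.52), Lbx2 (-0.65 to 1.69), Map3k3 (-1.39 to 0.50), Mmp3 (-0.97 to 0.57), Nupr1 (-0.99 to 1.37), Psph (-1.48 to 0.79), Ramp3 (-0.83 to 1.58), Slc30a1 (-0.78 to 1.97), Slco4a1 (-1.51 to 0.94), Trib3 (-2.04 to 0.99), Txnrd1 (-0.44 to 1.10) and Vegfa (-0.75 to 0.80). Signal near the negative controls limits dim genes.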

Other observations

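Genes of lysosomes and autophagy were measured for all 28 list members, of which 8 rose and 1 fell after 10 Gy. Among all genes 12.4% were called higher and 15.8% lower. The medians of the 28 genes were 0.34 in replicate 1 and 0.24 in replicate 2. The autophagy receptor Sqstm1 was at 2.71 and 0.45 (a probe with a saturated spot), the protease cathepsin D (Ctsd) at 1.89 and 0.89 and the initiating kinase Ulk1 at 1.45 and 1.24. The 1 that fell was Lamp2, a lysosomal membrane protein (-1.06 and -0.23), whose call was lost in 14 alternatives. With median centring 15 rose and none fell. Of 29 splicing factor genes 11 fell and 3 rose, where the 3 are near the 12.4% of all genes and 15.8% of all were lower. Those that fell were led by Tra2b (-1.01 and -1.21), Hnrnpa0 (-1.10 and -0.73) and Srsf1 (-0.81 and -0.75). With median centring 7 of the 29 rose and 4 fell.

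Of 35 measured matrix and TGF-beta genes on a list of 40, 7 rose and 4 fell, beside 12.4% higher and 15.8% lower among all genes, and with median centring 10 rose and none fell. Timp2, an inhibitor of metalloproteinases, was at 1.14 and 2.03, the ligand Tgfb3 at 1.04 and 0.70 and the inhibitory Smad7 at 0.88 and 0.56. Ccn1, a matricellular protein, was at -0.64 and -1.47 and Spp1, osteopontin, at -2.15 and -0.23 (a probe with a saturated spot). Ccn2, a target of TGF-beta, had opposite signs (0.20 and -1.22). Sparc fell (-0.42 and -0.61), and stood at a mean of 0.18 with median centring. Of 10 measured annexins Anxa8 alone rose and Anxa4 fell (-0.39 and -0.56), counts near the shares of all genes.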
